A study of Schizosaccharomyces pombe with 16 samples.

Results

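The genes described here are 36 nuclear-encoded genes of fission yeast (*Schizosaccharomyces pombe*) whose products form the TCA cycle, the respiratory chain and the ATP synthase, out of 7019 genes in the deposited table. They were chosen by gene identifier and function, with a rule that uses no measured value. They comprise 10 TCA cycle enzymes, 4 subunits of succinate dehydrogenase, 6 of complex III, cytochrome c, 5 subunits of cytochrome c oxidase, 8 of the ATP synthase and 2 NADH dehydrogenases. All 36 were detected in every library and passed the filter on low counts. Gene names are those of the RefSeq annotation, in which SPAC16E8.17c, the alpha subunit of succinate-CoA ligase, has no symbol, the gene also known as *sdh4* is *tim18*, and the NADH dehydrogenase genes are *ndi1* (SPBC947.15c) and *nde1* (SPAC3A11.07, also known as *nde2*).

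The study used Wilmar-P, an isolate employed to ferment molasses, its ancestor Wilmar-A (both of mating type h90) and the laboratory strain 972h-, each represented by 1 strain. Wilmar-P and Wilmar-A were grown in rich YES medium with 3% glucose at 32 degrees and moved for 4 h to one of 3 media. The glucose medium was fresh YES with 3% glucose, the glucose-deficient medium held 0.1% glucose beside 3% glycerol, and the glucose-starved medium held glycerol at 3% and no glucose. Wilmar-P and the laboratory strain were also cultured for 4 h on molasses. These 8 groups held 2 RNA-seq libraries each, 16 in all. The labels do not say that replicates came from separate cultures, so p-values measure the spread between these libraries, which may be technical.

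In the TCA cycle, acetyl groups are oxidised to CO2 and the electrons are passed to NADH and, by succinate dehydrogenase, to ubiquinone. Internal and external NADH dehydrogenases, complex III, cytochrome c and cytochrome c oxidase carry electrons on to oxygen, and the proton gradient built by complexes III and IV drives the ATP synthase. *S. pombe* ferments when glucose is plentiful and represses many respiratory genes, and it uses glycerol by respiration. In yeasts, the CCAAT box is bound by the Php complex (Hap in *Saccharomyces cerevisiae*), a regulator of respiratory genes. The core subunits of cytochrome c oxidase, cytochrome b and parts of the ATP synthase are encoded in the mitochondrial genome and are not among the 36 genes.

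CCAAT, on either strand, was present within 250 bases upstream of the RefSeq start in 20 of the 35 genes counted, or 57.1%, and in 1805 of 5103 protein-coding genes, or 35.4%. It was found upstream of the 3 succinate dehydrogenase genes counted (*sdh1*, *sdh3* and *tim18*), 5 of the 6 complex III genes and *cyc1*, and of 4 of 10 TCA cycle genes, 2 of 5 cytochrome c oxidase genes, 4 of 8 ATP synthase genes and 1 of 2 NADH dehydrogenase genes. TGACGT, the core of the cAMP-response element, was present upstream of *cit1* and *rip1* (5.53% of all coding genes), and CCCCTC, the stress response element, upstream of *cit1* and *idh2* (1.70%). None of the 3 motifs overlaps another in the stretches shown. The windows below are given for these 3 succinate dehydrogenase genes and *cyc1*, because succinate dehydrogenase and cytochrome c had the lowest group medians in glucose-deficient medium and the highest in the step from there to glucose-starved medium, and for *cit1*, because it had the largest value of all in glucose-deficient medium. They are on the RefSeq assembly ASM294v3, at I:3798463-3798712 (minus strand) for *sdh1*, III:136649-136898 (minus) for *sdh3*, II:2035810-2036059 (plus) for *tim18*, III:1714372-1714621 (plus) for *cyc1* and I:2327578-2327827 (plus) for *cit1*. Capitals mark CCAAT or its reverse complement in the first 4 and TGACGT and CCCCTC in *cit1*, whose window holds no CCAAT.
sdh1: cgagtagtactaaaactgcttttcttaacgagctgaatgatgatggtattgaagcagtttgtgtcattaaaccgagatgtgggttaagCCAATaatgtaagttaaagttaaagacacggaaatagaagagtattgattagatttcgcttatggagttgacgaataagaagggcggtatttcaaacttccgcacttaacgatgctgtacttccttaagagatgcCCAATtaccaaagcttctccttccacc
sdh3: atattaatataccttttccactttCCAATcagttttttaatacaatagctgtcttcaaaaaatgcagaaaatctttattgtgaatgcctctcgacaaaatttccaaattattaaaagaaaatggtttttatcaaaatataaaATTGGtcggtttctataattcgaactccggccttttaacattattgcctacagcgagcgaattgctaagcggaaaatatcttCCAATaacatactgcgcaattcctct
tim18: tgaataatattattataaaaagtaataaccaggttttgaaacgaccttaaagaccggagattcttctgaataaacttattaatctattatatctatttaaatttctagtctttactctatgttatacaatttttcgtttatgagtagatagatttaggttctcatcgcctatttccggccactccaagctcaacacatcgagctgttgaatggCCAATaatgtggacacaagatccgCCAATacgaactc
cyc1: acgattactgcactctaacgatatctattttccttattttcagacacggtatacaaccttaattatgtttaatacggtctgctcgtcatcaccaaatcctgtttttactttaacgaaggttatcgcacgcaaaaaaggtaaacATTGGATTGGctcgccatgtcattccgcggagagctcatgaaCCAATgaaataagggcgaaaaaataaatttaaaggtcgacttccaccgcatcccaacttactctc
cit1: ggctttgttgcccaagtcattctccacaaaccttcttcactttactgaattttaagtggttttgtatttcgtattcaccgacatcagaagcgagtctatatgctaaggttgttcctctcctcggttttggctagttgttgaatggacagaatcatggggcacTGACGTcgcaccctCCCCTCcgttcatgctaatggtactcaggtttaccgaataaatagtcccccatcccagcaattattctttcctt
A match to these letters is a description of the sequence and not evidence of a bound factor. The gene models of the deposited table share the 3' end of the RefSeq model for all 36 genes but begin farther upstream for 31 of them, by up to 154 bases among the 5 genes shown, so part of a window can be transcribed.

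Libraries held 13246648 to 18164249 counts, of which the 36 genes took 0.881% to 2.76%. Levels are given as CPM, counts put on a common library size with TMM factors, and RPKM are CPM per kilobase of exons. *fbp1*, the glucose-repressed gluconeogenesis gene used as a check of the media, was at 5.40 to 20.4 CPM in glucose, 305 to 757 CPM in glucose-deficient and 384 to 1034 CPM in glucose-starved medium, and 5.05 to 16.8 CPM on molasses. Non-coding genes took 8.57% to 8.76% of counts in the 3 libraries labelled unstranded (replicate 1 of Wilmar-P glucose, Wilmar-P glucose-deficient and Wilmar-A glucose-deficient), 8.91% in replicate 1 of Wilmar-A glucose, which is labelled stranded, and 1.25% to 2.57% in the other 12. A gene was called when its edgeR adjusted p, over 6662 tested genes, was below 0.05 and its change was above 2-fold. Fold changes come from a fit with a term for the labelled library type and so can differ from ratios of mean levels.

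Per length, the order of the 36 mRNAs depended on the medium. *atp2*, the beta subunit of the ATP synthase, had the highest mean level in Wilmar-P glucose (618 RPKM), Wilmar-P glucose-deficient (1397 RPKM), Wilmar-A glucose (901 RPKM), Wilmar-A glucose-deficient (2214 RPKM) and Wilmar-P molasses (756 RPKM). *cyc1* was above it in glucose-starved Wilmar-P (1719 against 1266 RPKM), glucose-starved Wilmar-A (2492 against 1652 RPKM) and the laboratory strain on molasses (802 against 546 RPKM). The lowest was *kgd1* in the 4 glucose and glucose-deficient groups, at 27.2 to 55.9 RPKM, and SPAC16E8.17c in the other 4, at 26.1 to 59.6 RPKM. Over the 16 libraries, *rip1*, *qcr7*, *atp5* and *cox8* had mean levels of 568, 564, 543 and 531 RPKM, which lie close together beside the range of each. The highest library exceeded the lowest by 18.1-fold for *cit1*, by 15.7-fold for *idh2* and by 15.1-fold for *mdh1*, against 2.13-fold for *atp7* and 2.22-fold for *cox13*. The median of the 36 genes was 141 RPKM in Wilmar-P glucose, 250.1 RPKM in glucose-deficient and 356 RPKM in glucose-starved medium. In Wilmar-A the corresponding medians were 152, 294 and 428 RPKM.

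**Figure D1:**
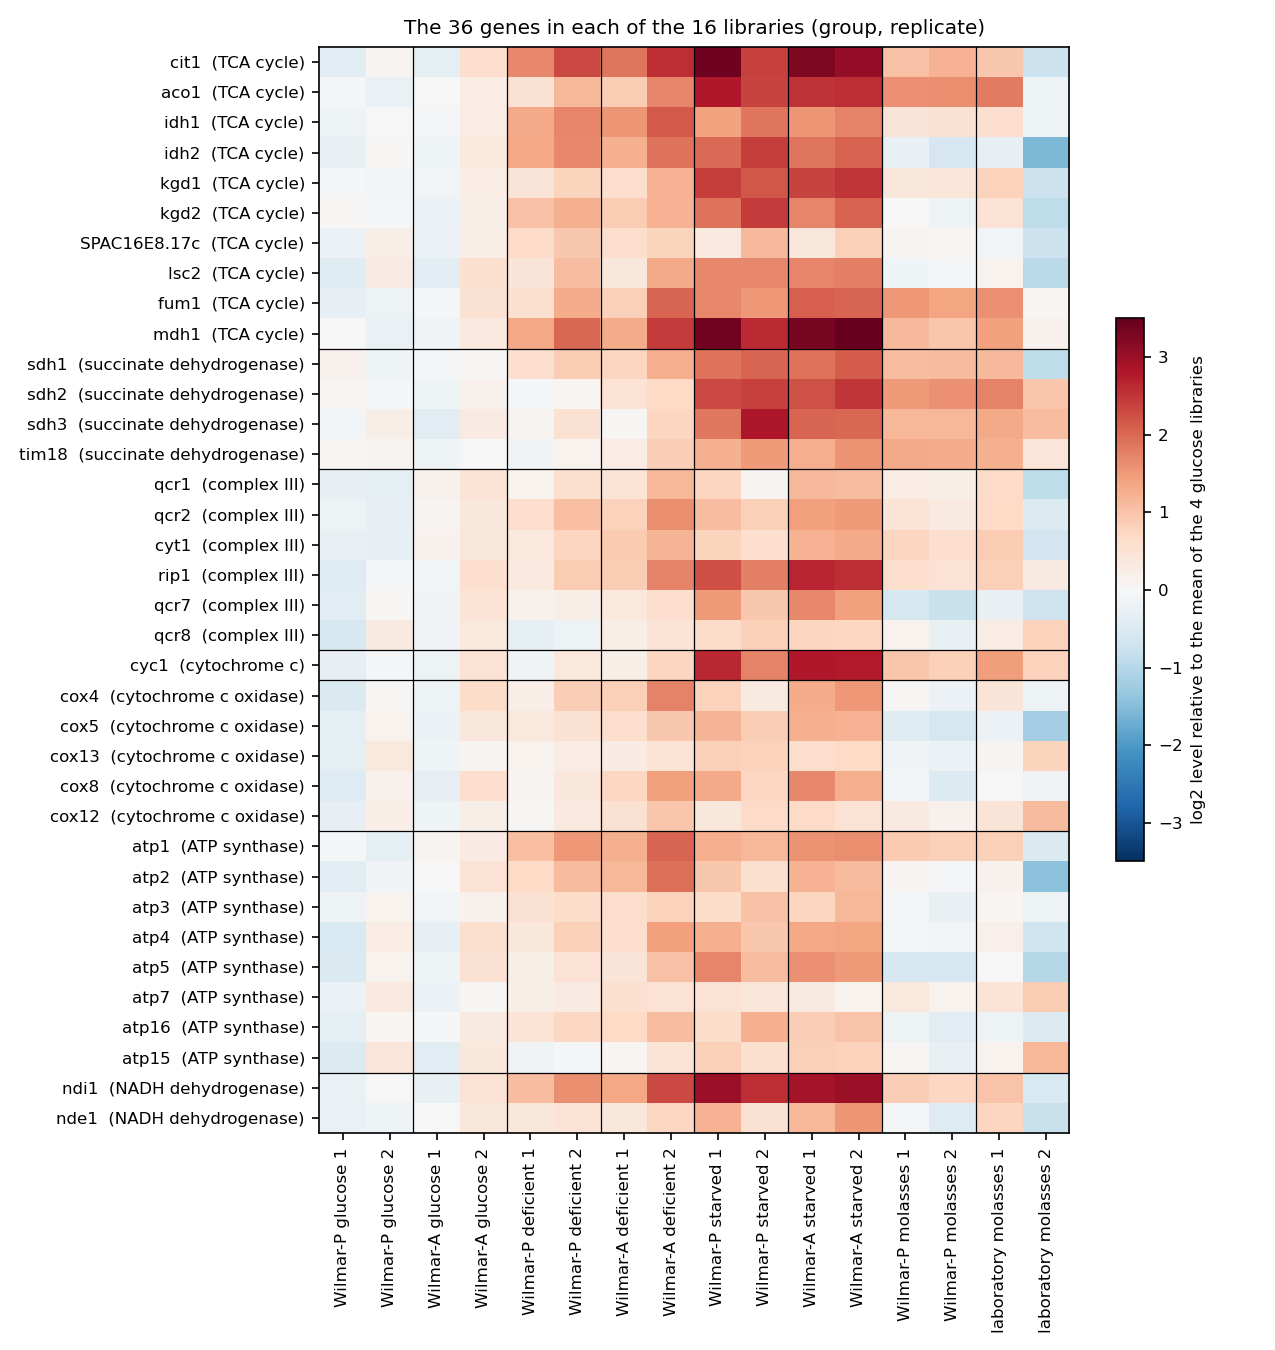
Log2 level of each of the 36 genes (rows, grouped by role) in each of the 16 libraries (columns, by group and replicate), relative to the mean of the 4 glucose libraries of that gene. Red is higher and blue lower, and all rows are above 0 in the 4 glucose-starved columns, while the laboratory strain's molasses replicate 2 is blue for most TCA cycle genes.

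Glucose starvation was compared with glucose to ask how far the respiratory genes respond when glycerol replaces glucose. All 36 genes had both glucose-starved libraries above both glucose libraries in Wilmar-P, and again in Wilmar-A, whereas 34.0% and 35.7% of 5073 tested coding genes did so. In Wilmar-P, 19 of the 36 rose and none fell, beside 16.1% of coding genes called higher and 13.9% lower. In Wilmar-A, 25 rose and none fell, beside 16.2% and 18.6%. Over the 36, the log2 fold change had a median of 1.18 in the production isolate and 1.34 in its ancestor, against -0.03 and -0.11 for all coding genes. Between libraries of the same number, the median was 1.67 (replicate 1) and 1.15 (replicate 2) in Wilmar-P. In Wilmar-A it was 1.62 and 1.12. The library-type term applies to glucose replicate 1 of Wilmar-P and not to that of Wilmar-A, which is labelled stranded. The fitted medians of the isolates are thus adjusted differently. The fitted values were largest in the TCA cycle, succinate dehydrogenase, cytochrome c and *ndi1*, and smallest in complex III, the nuclear subunits of cytochrome c oxidase and the ATP synthase, whose medians lay between 0.61 and 1.11.

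Of the 10 TCA cycle enzymes, 9 rose in each isolate, with medians of 2.13 in Wilmar-P and 1.86 in Wilmar-A on the log2 scale. *mdh1*, the mitochondrial malate dehydrogenase, was at 131 and 112 CPM in the glucose libraries of Wilmar-P and at 1368 and 798 CPM in the glucose-starved ones. The Wilmar-A libraries had 122 and 167 CPM with glucose and 1314 and 1695 CPM without it. The groups did not overlap in either isolate, and the fitted rise was 7.21-fold in Wilmar-P (log2 2.85 ± 0.53 SE, adjusted p = 0.0022, edgeR) and 10.4-fold in Wilmar-A (3.38 ± 0.49, adjusted p = 0.000419, edgeR).

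*cit1*, citrate synthase, which admits acetyl-CoA to the cycle, was at 143 and 195 CPM in glucose and 1960 and 957 CPM in glucose-starved Wilmar-P. In Wilmar-A its glucose libraries had 148 and 274 CPM and its glucose-starved libraries 1758 and 1561 CPM. Its log2 rise was 2.83 ± 0.58 (adjusted p = 0.00373) and 2.97 ± 0.54 (adjusted p = 0.00157, both edgeR). *aco1*, aconitase, went from 291 and 254 CPM to 2070 and 1541 CPM in Wilmar-P, and from 299 and 352 CPM to 1729 and 1786 CPM in Wilmar-A. *kgd1* and *kgd2*, the first 2 components of 2-oxoglutarate dehydrogenase, rose by 4.70-fold and 4.39-fold in Wilmar-P and by 5.04-fold and 3.68-fold in Wilmar-A. The isocitrate dehydrogenase subunits *idh1* and *idh2* rose by 2.94-fold and 4.34-fold in Wilmar-P, and *fum1*, fumarase, and *lsc2*, the beta subunit of succinate-CoA ligase, by 2.75-fold and 2.61-fold. SPAC16E8.17c, the partner of *lsc2*, was the exception, at 0.65 ± 0.31 (adjusted p = 0.134) and 0.62 ± 0.29 (adjusted p = 0.103, edgeR), and it was not called.

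All 4 subunits of succinate dehydrogenase, which is both a TCA cycle enzyme and complex II, rose in both isolates. *sdh2*, the iron-sulphur subunit, had little spread between replicates. It was at 112 and 103 CPM in glucose and 530.0 and 561 CPM in glucose-starved Wilmar-P, and at 97.3 and 118 CPM and 507 and 610 CPM in Wilmar-A. Its rise was 4.94-fold (log2 2.30 ± 0.29, adjusted p = 0.000212) and 5.18-fold (2.37 ± 0.26, adjusted p = 9.52e-05, edgeR). *sdh3*, one of the membrane anchors, went from 160 and 198 CPM to 613.4 and 1226 CPM in Wilmar-P and from 129 and 207 CPM to 704 and 694 CPM in Wilmar-A. *sdh1*, the flavoprotein, rose by 3.64-fold and 4.07-fold in Wilmar-P and Wilmar-A. *tim18*, the other anchor, had the smallest rise of the 4, by 2.21-fold and 2.85-fold.

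Complex III was mixed, with 2 of 6 genes rising in Wilmar-P and 3 in Wilmar-A. *rip1*, the Rieske iron-sulphur protein, was at 220.0 and 293 CPM in glucose and 1449 and 1023 CPM in glucose-starved Wilmar-P, and at 284 and 456 CPM and 1930 and 1814 CPM in Wilmar-A, a log2 rise of 1.98 ± 0.33 and 2.34 ± 0.30 (adjusted p = 0.00106 and 0.000224, edgeR). *qcr7* rose by 2.46-fold and 2.57-fold, and *qcr2*, a core protein, rose in Wilmar-A by 2.33-fold (adjusted p = 0.0163) while its Wilmar-P value was 0.99 ± 0.39 (adjusted p = 0.0727, edgeR). *cyt1*, cytochrome c1, *qcr8* and *qcr1* were not called in either isolate. The smallest value was that of *qcr1*, a core protein, in Wilmar-P (0.58 ± 0.47) and that of *qcr8* in Wilmar-A (0.59 ± 0.27). The whole span of *rip1* is covered by a gene on the opposite strand, so its reads cannot be told apart from those of that gene in unstranded libraries. Between the stranded libraries of replicate 2 it still went from 293 to 1023 CPM in Wilmar-P and from 456 to 1814 CPM in Wilmar-A. The same limit applies to part of the reads of other genes described here, since 16 in all overlap a gene on the opposite strand. Beside *rip1*, the longest overlaps were those of *atp1* (2764 bases), *kgd2* (1660 bases), *cox8* (558 bases) and *cit1* (540 bases). The effect on their fold changes was not tested.

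*cyc1*, cytochrome c, which shuttles electrons from complex III to complex IV, was at 334 and 396 CPM in glucose and 2546 and 1370 CPM in glucose-starved Wilmar-P. The Wilmar-A libraries had 360.2 and 583 CPM in glucose and 2873 and 2804 CPM in glucose-starved medium. The rise was 4.64-fold (log2 2.22 ± 0.39, adjusted p = 0.00148) and 6.02-fold (2.59 ± 0.36, adjusted p = 0.000343, edgeR). The nuclear subunits of cytochrome c oxidase, which receives these electrons, changed less. None of 5 was called in Wilmar-P, where the values ran from 0.35 for *cox12* to 0.98 for *cox5*, and 3 rose in Wilmar-A, namely *cox8* by 2.42-fold, *cox5* by 2.18-fold and *cox4* by 2.16-fold. Between libraries of the same number, the median of the 5 was 1.31 (replicate 1) and 0.43 (replicate 2) in Wilmar-P. In Wilmar-A it was 1.47 and 0.68. These genes have 325 to 973 exonic bases, and the glucose replicates differed by gene length, as given below for molasses.

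Among the 8 ATP synthase genes, 2 rose in Wilmar-P and 3 in Wilmar-A. *atp5*, a stalk subunit, rose by 2.59-fold and 2.48-fold, *atp1*, the alpha subunit, by 2.34-fold and 2.65-fold, and *atp4*, of the peripheral stalk, by 2.26-fold in Wilmar-A. *atp2* was at 1060 and 1295 CPM in glucose and 2733 and 2092 CPM in glucose-starved Wilmar-P, and its log2 value of 0.79 ± 0.46 did not pass (adjusted p = 0.211, edgeR). *atp7* had the smallest value of the 36 in both isolates, 0.28 ± 0.23 and 0.30 ± 0.21. Of the NADH dehydrogenases, *ndi1* rose by 6.22-fold in Wilmar-P (adjusted p = 0.00234) and 6.99-fold in Wilmar-A (adjusted p = 0.000838, edgeR), from 98.9 and 115 CPM to 942 and 689 CPM and from 96.4 and 165 CPM to 876 and 949 CPM. *nde1* was at 1.02 ± 0.47 in Wilmar-P (adjusted p = 0.118) and rose by 2.23-fold in Wilmar-A (adjusted p = 0.0459, edgeR).

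**Figure D2:**
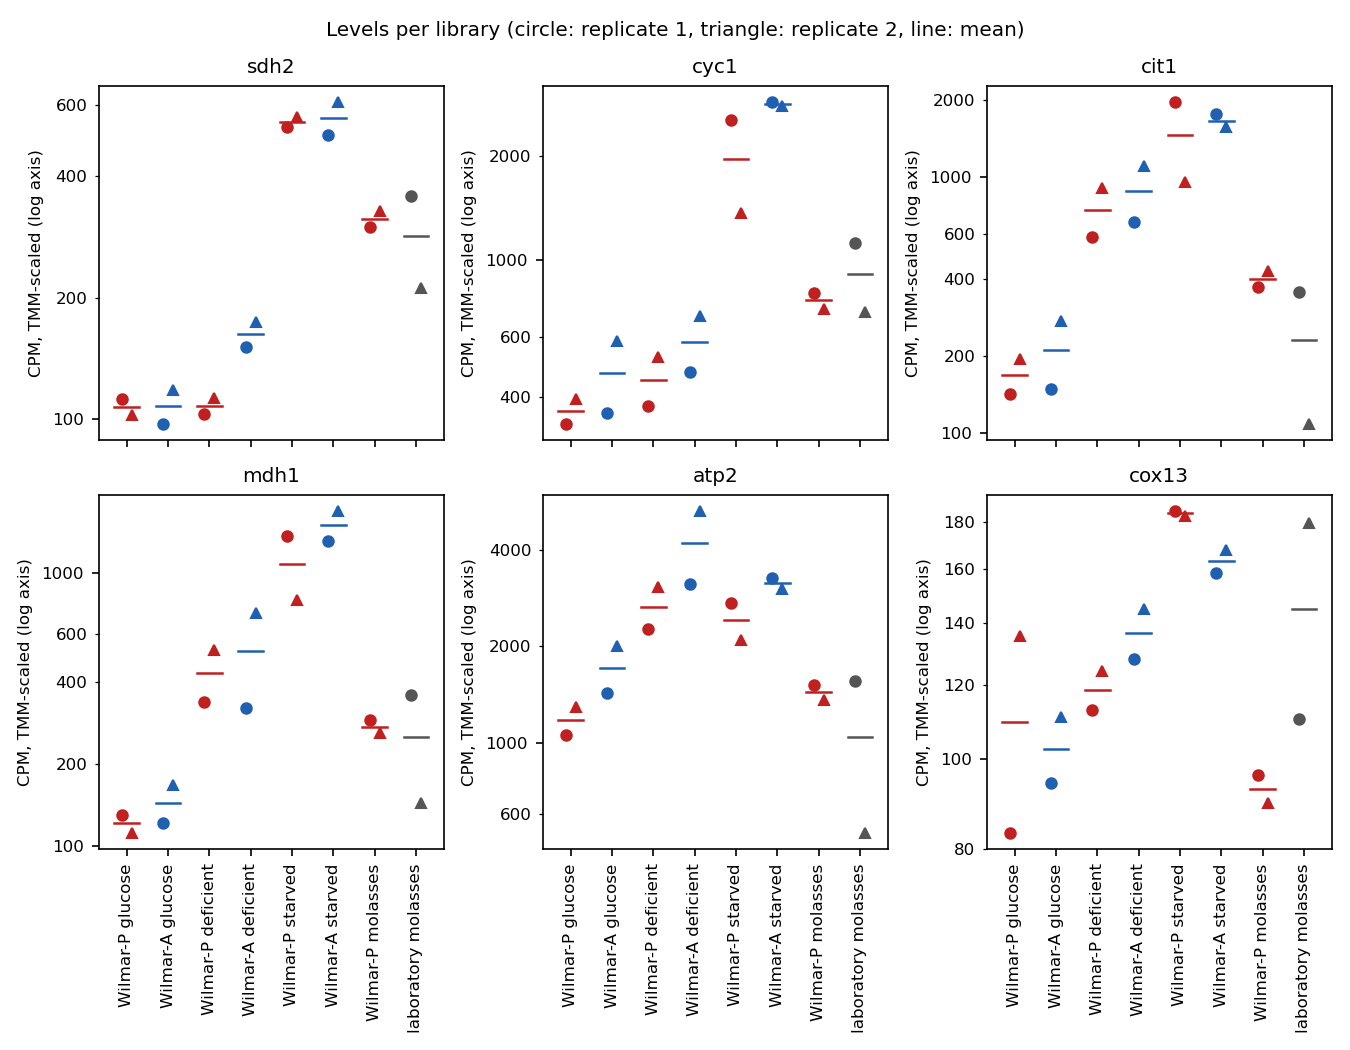
CPM (log axis) of 6 genes in each library of the 8 groups, with circles for replicate 1, triangles for replicate 2 and lines for the mean, Wilmar-P in red, Wilmar-A in blue and the laboratory strain in grey. *sdh2* and *cyc1* are highest in glucose-starved medium, and in Wilmar-P the levels of *sdh2* in glucose-deficient medium overlap those in glucose, whereas *cit1*, *mdh1* and *atp2* are already raised in glucose-deficient medium.

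One library decided most of the Wilmar-P calls. Without the stranded glucose library (replicate 2), 4 genes were called in Wilmar-P, *sdh2*, *sdh3*, *rip1* and *cyc1*, while each of the other 3 omissions left 14 to 18. In Wilmar-A the omissions left 17 to 27. *sdh2*, *sdh3*, *rip1* and *cyc1* were also the Wilmar-P genes called under each of the 13 alternatives, and 17 genes were so in Wilmar-A.

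The glucose-deficient medium, with 0.1% glucose beside the glycerol, gave fewer calls. In Wilmar-P, 2 of the 36 rose in glucose-deficient medium relative to glucose, beside 2.21% of coding genes called higher and 0.217% lower, and these were *idh1* (log2 1.62 ± 0.27, adjusted p = 0.0131) and *idh2* (1.64 ± 0.37, adjusted p = 0.0499983, edgeR). In Wilmar-A, 11 rose, beside 6.45% higher and 3.23% lower, including 5 TCA cycle genes (*cit1*, *idh1*, *idh2*, *fum1* and *mdh1*), *rip1*, *cox4*, *cox8*, *atp1*, *atp2* and *ndi1*. None fell in either isolate. Of the called genes, *rip1*, *atp1*, *cox8* and *cit1* have the opposite-strand overlaps given above, and glucose-deficient replicate 1 is labelled unstranded in both isolates. The glucose libraries are those of the starvation comparison, so the results are not independent of it. The medians were 0.73 and 0.95, against 0.07 and 0.05 for all coding genes, and 26 and 27 genes had both glucose-deficient libraries above both glucose libraries, as did 28.9% and 25.7% of coding genes. These calls were sensitive to single libraries, since the omission of any 1 of the 4 Wilmar-P libraries left 0 called, and the omissions in Wilmar-A left 0 (without glucose-deficient replicate 2), 1 (without glucose replicate 1), 6 (without glucose-deficient replicate 1) or 18 (without glucose replicate 2).

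*cit1* was at 586 and 905 CPM in glucose-deficient Wilmar-P and 667 and 1103 CPM in Wilmar-A, 2.12 ± 0.52 (adjusted p = 0.0654) and 2.32 ± 0.55 (adjusted p = 0.0285, edgeR) above glucose on the log2 scale. These were the largest values of the 36 in both isolates. *mdh1* followed at 1.75 ± 0.46 and 2.03 ± 0.48. *atp2* was at 2268 and 3058 CPM in Wilmar-P and 3130 and 5311 CPM in Wilmar-A, 2.24-fold (adjusted p = 0.178) and 2.83-fold (adjusted p = 0.0489, edgeR) above glucose. *atp1* was at 1.44 ± 0.39 and 1.63 ± 0.41. No succinate dehydrogenase gene was called, and neither was *cyc1*. *sdh1* had the largest succinate dehydrogenase value in both isolates, 0.72 ± 0.48 and 1.12 ± 0.51. *sdh2* was at 102.9 and 113.1 CPM in Wilmar-P, beside 112.2 and 102.8 CPM in glucose, with a fitted log2 value of 0.00 ± 0.25. In Wilmar-A it was at 151 and 174 CPM, above both glucose libraries by 0.63 ± 0.27 (adjusted p = 0.126, edgeR). *cyc1* was at 376 and 523 CPM and at 473 and 687 CPM, 0.28 ± 0.34 and 0.48 ± 0.36 above glucose. *tim18*, *qcr8* and *atp15* were the 3 genes below 0 in Wilmar-P, at -0.09, -0.14 and -0.08.

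In the remaining step, from glucose-deficient to glucose-starved medium, most calls fell in succinate dehydrogenase and *cyc1*. In Wilmar-P 6 of the 36 rose, beside 11.4% of coding genes called higher and 11.6% lower, and they were *kgd1*, *sdh2*, *sdh3*, *tim18*, *rip1* and *cyc1*. In Wilmar-A 5 rose, beside 8.93% and 10.7%, and they were *kgd1*, *sdh2*, *sdh3*, *rip1* and *cyc1*. None fell. At an unadjusted p below 0.05 (edgeR, either direction) there were 12 genes in Wilmar-P (33.3%) and 8 in Wilmar-A (22.2%). These are smaller shares than the 43.0% and 40.7% of coding genes. *sdh2* rose by 4.93-fold (2.30 ± 0.28, adjusted p = 0.000327) and 3.35-fold (1.74 ± 0.28, adjusted p = 0.00174), and *cyc1* by 3.82-fold (1.93 ± 0.38, adjusted p = 0.00401) and 4.30-fold (2.11 ± 0.38, adjusted p = 0.00352, edgeR). At the other end were *atp2*, at -0.37 ± 0.45 and -0.63 ± 0.44, *idh1*, at -0.06 ± 0.29 and -0.40 ± 0.29, *cox4*, at -0.32 ± 0.33 and -0.22 ± 0.33 (none called), and *atp1*, at -0.22 ± 0.41 and -0.23 ± 0.40. The medians of the 36 were 0.50 and 0.28, against -0.08 and -0.11 for all coding genes. Only *sdh2* in Wilmar-P was called under all 13 alternatives, and without glucose-deficient replicate 2 a single gene was called in either isolate. The other omissions left 4 to 7 in Wilmar-P and 2 in Wilmar-A.

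Counted over the genes, the step to glucose-deficient medium was the larger of the 2 for 22 of 36 in Wilmar-P and 30 of 36 in Wilmar-A. For the TCA cycle this held for 8 and 9 of 10, and for the ATP synthase for 6 and 8 of 8. For succinate dehydrogenase the step to glucose-starved medium was the larger for 4 of 4 in Wilmar-P and 2 of 4 in Wilmar-A, and for *cyc1* in both. The 2 steps share the glucose-deficient libraries, so a high or low glucose-deficient library raises one step and lowers the other, and the order of the steps was not tested. In both isolates the glucose-deficient replicate 1, labelled unstranded, was lower than replicate 2 for 36 and 35 of the 36 genes, with a median log2 difference of -0.32 and -0.59. For coding genes under 1000 exonic bases the medians were -0.11 and -0.12, and for longer ones -0.07 and -1.05e-05. In glucose, 10 of the 36 were higher in replicate 1 in Wilmar-P (labelled unstranded) and 0 in Wilmar-A (labelled stranded). The part of library type was not tested.

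**Figure D3:**
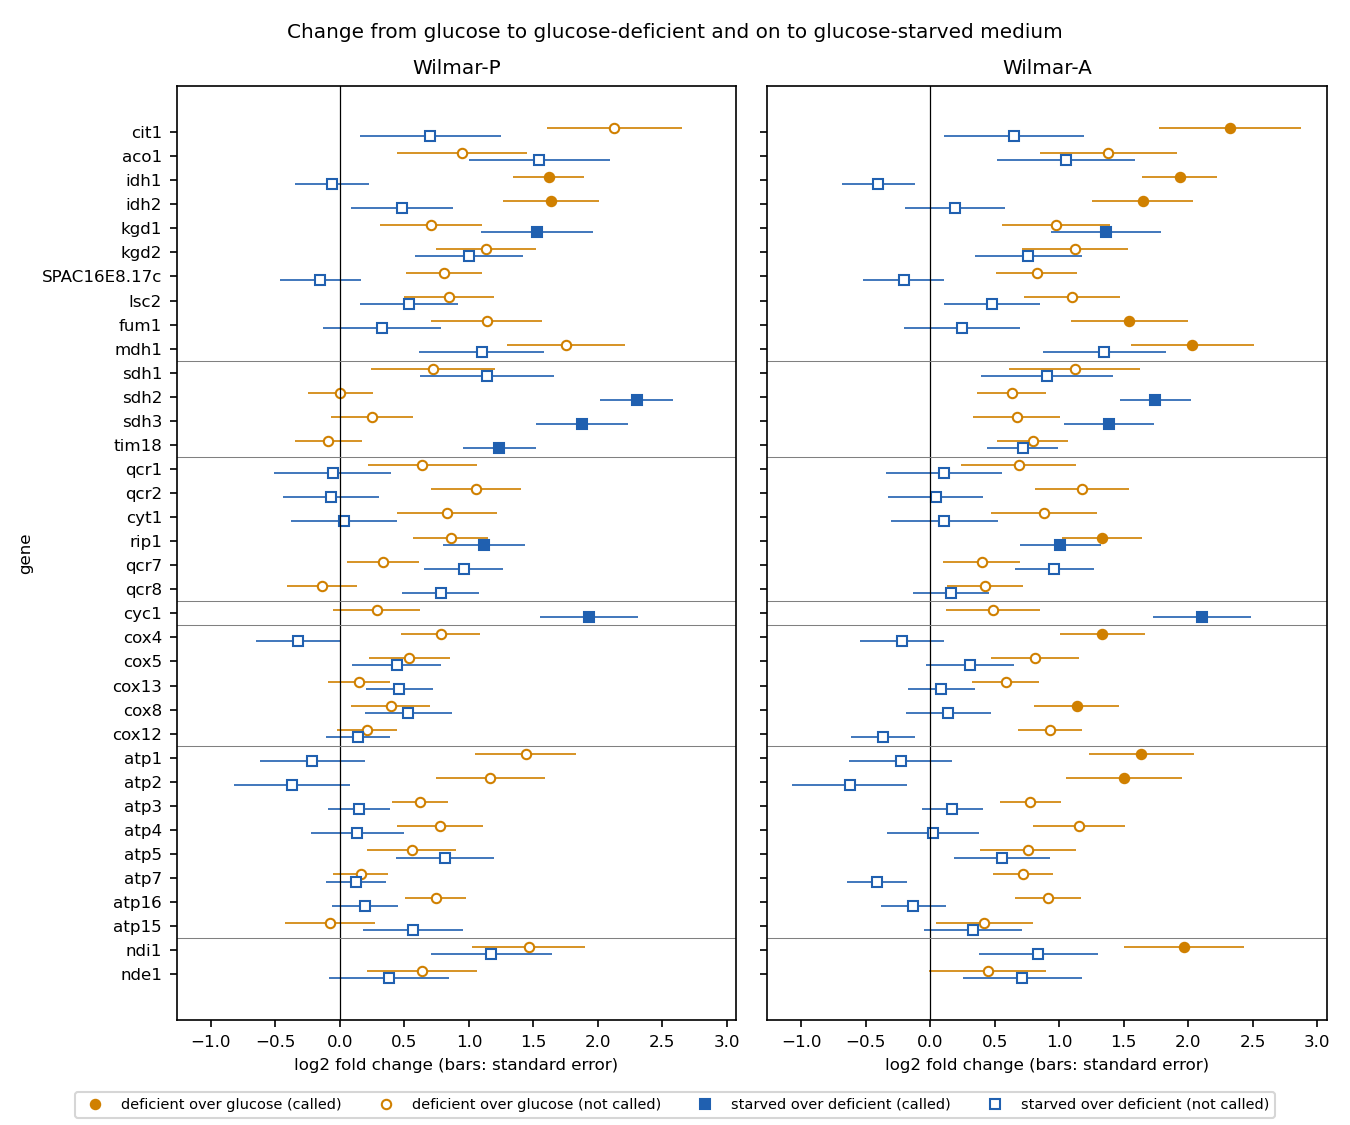
Log2 fold change of each gene from glucose to glucose-deficient medium (orange circles) and from glucose-deficient to glucose-starved medium (blue squares) in Wilmar-P (left) and Wilmar-A (right), with bars for the standard error and filled symbols for called genes. *sdh2*, *sdh3* and *cyc1* have blue squares far to the right of their orange circles, and *cit1*, *idh1*, *idh2*, *atp1* and *atp2* the reverse.

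Molasses was set against glucose in Wilmar-P to ask how the respiratory genes stood in the sugar-rich industrial medium. The 36 genes as a group were near the level of all coding genes, with a median of 0.06 against 0.03 on the log2 scale and 20 of 36 above 0. The fit has a term for library type, and glucose replicate 1 is labelled unstranded while both molasses libraries are stranded. Without that term the median was 0.26, with 24 of 36 above 0. In levels, the median of the 36 was 205 RPKM on molasses against 141 RPKM in glucose, and between libraries of the same number the median log2 difference was 0.56 for replicate 1 (32 of 36 higher) and -0.01 for replicate 2 (18 of 36 higher). Only *sdh2* was called, beside 0.769% of coding genes called higher and 0.473% lower, at 299 and 328 CPM on molasses, or 2.84-fold above glucose (1.51 ± 0.28, adjusted p = 0.0282, edgeR). The omission of any 1 of the 4 libraries ended this call, and the glucose libraries are again the same. Its molasses libraries lay above all of its glucose and glucose-deficient libraries and below all of its glucose-starved ones. All 4 succinate dehydrogenase genes had both molasses libraries above both glucose libraries in Wilmar-P, *tim18* at 176 and 175 CPM (1.08 ± 0.29), *sdh1* at 543 and 555 CPM (0.99 ± 0.54) and *sdh3* at 383 and 386 CPM (0.87 ± 0.35), none of which was called.

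Other role groups divided on molasses. *aco1* (897 and 915 CPM, 2.82-fold), *fum1* (470.3 and 423 CPM, 2.47-fold) and *cit1* (373 and 430 CPM, 1.95-fold) had the largest TCA cycle values relative to glucose, and *idh2* the smallest, -0.52 ± 0.39 on the log2 scale. *cyc1* was at 804 and 724 CPM (0.86 ± 0.37), *cyt1* at 0.83 ± 0.42 and *atp1* at 0.87 ± 0.43. Below 0 were *qcr7* at -0.65 ± 0.30, *atp5* at -0.63 ± 0.37 and *cox5* at -0.58 ± 0.34, and 4 of the 5 cytochrome c oxidase genes and 5 of the 8 ATP synthase genes had values below 0. None of these passed the test. In all, 18 genes had both molasses libraries above both glucose libraries and 3 had both below, and for all coding genes the shares were 33.5% and 24.01%.

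Wilmar-P was compared with the laboratory strain on molasses, the medium it is used to ferment, and none of the 36 genes was called in either direction by edgeR or DESeq2, beside 0.552% of coding genes called higher and 1.73% lower. At an unadjusted p below 0.05 there were 4 genes, all lower in Wilmar-P, *cox13*, *cox12*, *atp15* and *qcr8* (-0.58 to -0.84). This is 11.11% of the 36, and 14.4% of coding genes had such a p. The largest positive value was that of *cit1*, 0.79 ± 0.51 (adjusted p = 0.479, edgeR), and *sdh1* followed with 0.65 ± 0.48.

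Between the laboratory libraries, replicate 1 was above replicate 2 for 31 of the 36 genes, with a median log2 difference of 0.94, and 17 of the 36 differed by 2-fold or more, as did 8.81% of coding genes. All 10 TCA cycle genes were higher in replicate 1, with a median of 1.35. *sdh1* was at 561 CPM in replicate 1 and 139 CPM in replicate 2, *aco1* at 1052 and 262 CPM, *cit1* at 355 and 109 CPM and *atp2* at 1557 and 523 CPM. The 5 genes that were higher in replicate 2 were *qcr8*, *cox13*, *cox12*, *atp7* and *atp15*, with *atp15* at 98.9 CPM in replicate 1 and 203 CPM in replicate 2. Both Wilmar-P libraries lay between the laboratory libraries for 22 of the 36 genes, and the Wilmar-P replicates were close, with a median difference of 0.15. How many coding genes lay so was not counted. Their median absolute difference was 0.42 between the laboratory replicates and 0.10 between the Wilmar-P replicates.

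The gap between the laboratory replicates moved with gene length. All 25 of the genes with at least 1000 exonic bases were higher in replicate 1, with a median log2 difference of 1.31, and 6 of the 11 shorter genes were, with a median of 0.10. Over all coding genes the corresponding medians were 0.15 and -0.38. The glucose replicates of Wilmar-P differed by length too, with medians of -0.17 for the longer and -0.56 for the shorter of the 36. Over all coding genes these were -0.08 and -0.55. In Wilmar-A glucose the medians were -0.40 and -0.60 for the 36 and -0.09 and -0.32 for coding genes. The part of length or RNA quality in these values was not tested. Without laboratory replicate 1, the genes that passed the thresholds as higher in Wilmar-P had values of 1.14 to 1.98 on the log2 scale. They were *cit1*, *aco1*, *idh2*, *kgd1*, *fum1*, *sdh1*, *cyt1*, *atp1*, *atp2* and *ndi1*, while *atp15* was lower. Without laboratory replicate 2, 4 of the 36 values were above 0. Each of these fits rests on 1 laboratory library, and the share of coding genes that passed is not given.

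**Figure D4:**
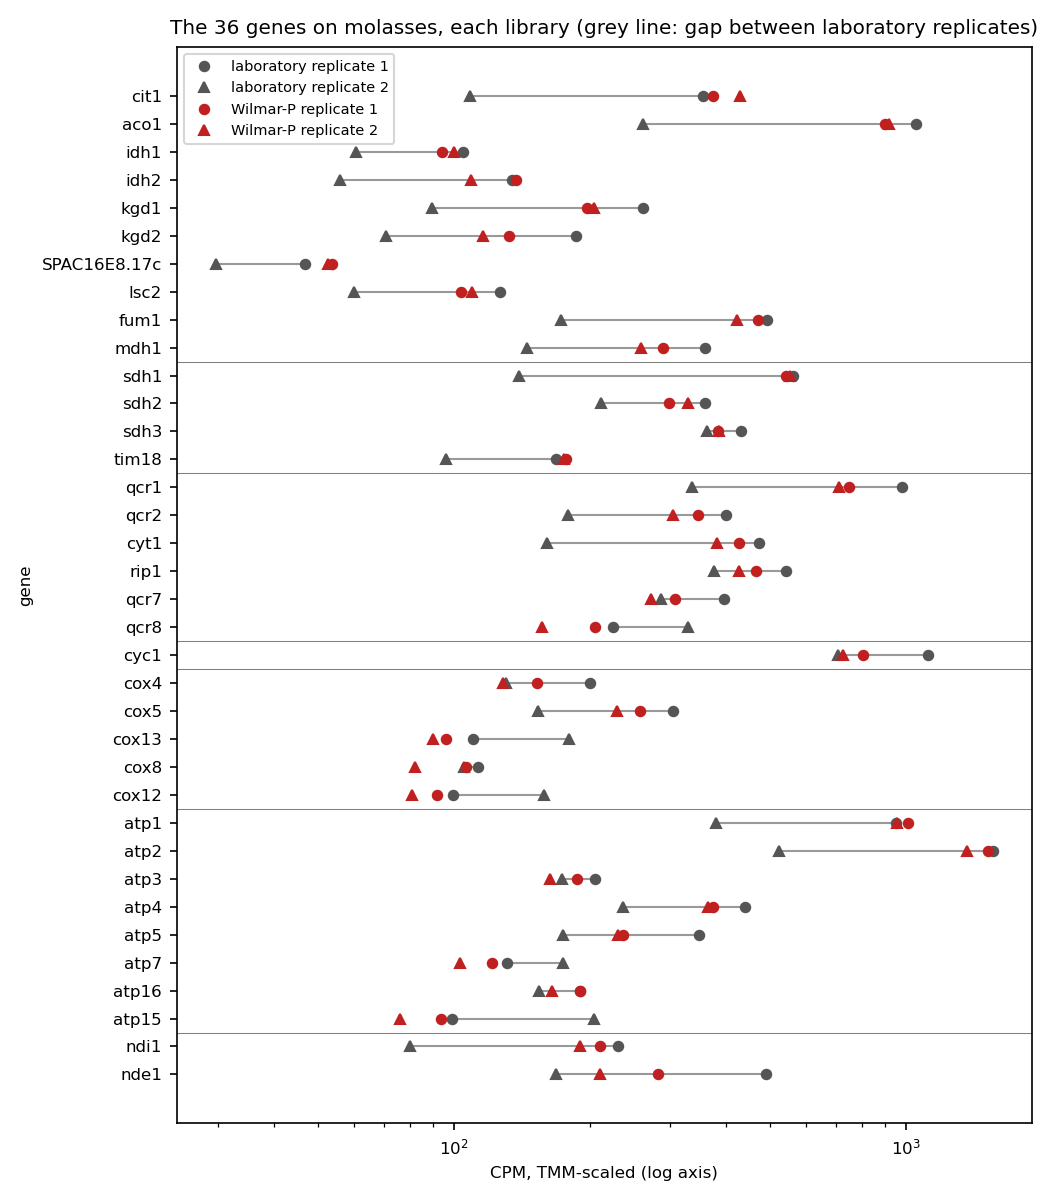
CPM (log axis) of the 36 genes in the 4 molasses libraries, with laboratory replicates in grey joined by a line and Wilmar-P replicates in red. The grey circles of replicate 1 lie to the right of the grey triangles of replicate 2 for 31 genes, and the red symbols fall between them for 22.

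Wilmar-P was compared with Wilmar-A in each medium to ask whether respiratory expression differs between production isolate and ancestor. None of the 36 genes was called in glucose, glucose-deficient or glucose-starved medium or averaged over the 3 by edgeR or DESeq2, where 0.0197%, 0.0788%, 0.118% and 0.414% of coding genes were called in either direction. At an unadjusted p below 0.05 there were 0, 7, 1 and 4 genes, all lower in Wilmar-P, and 5.74%, 3.02%, 5.14% and 7.02% of coding genes in either direction. Only the 7 of glucose-deficient medium (19.4%) and the 4 of the average (11.11%) are larger shares than those of coding genes. The values leaned below 0 in glucose-deficient medium, with a median of -0.35 and 34 of 36 genes below 0, and over the 3 media, with a median of -0.20 and 29 of 36 below 0, while the median of all coding genes was 0.02 in each. Fitted medians were -0.04 in glucose (22 of 36 below 0) and -0.13 in glucose-starved medium (26 of 36), beside 0.04 for coding genes in each. The library-type term applies to glucose replicate 1 of Wilmar-P only. Between glucose libraries of the same number, 26 (replicate 1) and 31 (replicate 2) of 36 genes were lower in Wilmar-P, with medians of -0.13 and -0.35. *cox4* had the smallest adjusted p over the 3 media, at -0.58 ± 0.18 (adjusted p = 0.287, edgeR). Over the 21 alternatives its value ran from -0.71 to -0.42 and its adjusted p from 0.0233 (with Wilmar-A glucose replicate 1 as unstranded) to 0.783, always under 2-fold. In glucose-starved medium it was at 257 and 183 CPM in Wilmar-P and 362 and 421 CPM in Wilmar-A.

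Complex III was the group with the lowest median over the 3 media, -0.45, with all 6 genes below 0. *qcr1* was at 504 and 491 CPM in glucose Wilmar-P and 687 and 870.1 CPM in glucose Wilmar-A, and its averaged value was -0.54 ± 0.25 (adjusted p = 0.459, edgeR). *rip1* and *cyt1* were both at -0.51, with standard errors of 0.17 and 0.23 (adjusted p = 0.319 and 0.450, edgeR). Both Wilmar-P libraries lay below both Wilmar-A libraries for 8 of the 36 genes in glucose, 12 in glucose-deficient and 12 in glucose-starved medium, and for 8.52%, 8.14% and 16.5% of coding genes. *qcr1*, *qcr2* and *cyt1* were among these in glucose and in glucose-starved medium. Intervals of this width do not show that the isolates were alike.

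The largest positive value over the 3 media was that of *sdh3* (III:135724-136696, ASM294v2). Relative to Wilmar-A, its log2 value in glucose stood at 0.33 ± 0.35. It was -0.09 ± 0.32 in glucose-deficient medium, 0.39 ± 0.32 in glucose-starved medium and 0.21 ± 0.19 over the 3 (adjusted p = 0.685, edgeR). Its glucose-starved libraries of Wilmar-P, at 613.4 and 1226 CPM, lay on both sides of those of Wilmar-A, at 704 and 694 CPM, and without the higher one the value was -0.19, while without the lower one it was 0.81. The change from glucose to glucose-starved or to glucose-deficient medium did not pass the test of a difference between the isolates for any of the 36 genes (0 called by edgeR and 0 by DESeq2, with 0 and 1 at an unadjusted p below 0.05, beside 3.43% and 2.44% of coding genes).

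Genes that work beside the 36 were counted in the same fit, to be read beside the 16.1% and 16.2% of coding genes called higher and the 13.9% and 18.6% called lower in glucose-starved Wilmar-P and Wilmar-A. Of 13 other nuclear subunits of complexes III to V and of 2-oxoglutarate dehydrogenase, 3 rose in Wilmar-P (23.1%) and 5 in Wilmar-A (38.5%), and none fell. *inh1*, the inhibitor of ATP hydrolysis by the ATP synthase, rose most, by 2.71 and 2.60 on the log2 scale, and rose in glucose-deficient medium too, by 1.28 and 1.61. *kgd4*, of 2-oxoglutarate dehydrogenase, rose by 1.71 and 1.48, the complex III subunit *qcr9* by 1.12 and 1.71, and in Wilmar-A also *qcr10* by 1.12 and *cox7* by 1.49. *anc1*, the ADP/ATP carrier, rose by 1.89 and 2.04.

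Of 32 assembly factors, 7 rose (21.9%) and 1 fell (3.12%) in Wilmar-P, and 6 rose and 6 fell (18.8% each) in Wilmar-A, with medians of 0.31 and 0.00, and these shares of higher calls are close to those of coding genes. Factors of cytochrome c oxidase went both ways. *coa3* (2.33 and 2.62), *cox14* (1.60 and 1.58) and *cox17* (1.09 and 1.59) rose in both isolates and *cox10* in Wilmar-P (1.35), while *cox20* (-1.10) and *pet117* (-1.60) fell in Wilmar-A. For succinate dehydrogenase, *sdh8* rose (1.64 and 1.59) and *sdh7* fell in Wilmar-A (-1.36). The complex III factors *cbp3* (1.25 and 1.25) and *cbp4* (1.51 and 1.64) rose. The ATP synthase factors *atp10*, *atp11* and *atp23* fell in Wilmar-A, by 1.85, 1.57 and 1.04, and *oxa102*, of the membrane insertion machinery, fell in Wilmar-P by 1.10.

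Of 13 genes of ubiquinone synthesis, 1 rose in each isolate (7.69%, a smaller share than of coding genes), *coq11* (1.97 and 1.85). Of the 5 genes of the pyruvate dehydrogenase complex, 1 rose in each, *dld1*, the dihydrolipoamide dehydrogenase that 2-oxoglutarate dehydrogenase also uses (1.84 and 1.40). Of 7 other oxidative enzymes, *cir2* and *mae2*, the malic enzyme, rose in both, *ura3*, dihydroorotate dehydrogenase, fell in both (-2.45 and -1.73), and *dld2* fell in Wilmar-A (-1.16). Of 4 genes of the CCAAT-binding Php complex, *php3* rose in both isolates, by 1.42 and 1.82 (adjusted p = 0.006 and 0.000903, edgeR). Of 11 mitochondrially encoded protein genes 7 could be tested, at group means below 6 CPM, and 1, SPMIT.05, rose in Wilmar-A. On molasses, *mae2* and *sdh8* were lower in Wilmar-P than in the laboratory strain, by 2.53 and 1.62 on the log2 scale, and no other gene of these lists was called there. Both calls rest on the laboratory libraries that differed from each other as given above. Whether they hold without 1 of those libraries was not tested.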

How the data were processed

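Total RNA was ribo-depleted and sequenced, and per the labels 3 of 16 libraries were unstranded. The authors trimmed reads (cutadapt 1.9.1), aligned them with TopHat2 2.1.1 to ASM294v2 and counted them with featureCounts 1.5.2, a read counting for each gene it overlapped and strand being used for stranded libraries. What they deposited is 1 table of unnormalized counts per gene (7019 genes), of which every sample column was used. CPM and RPKM were computed here. Of the 36 genes, 7 overlapped a gene on the same strand and 16 a gene on the opposite strand.

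Differential expression was fitted with edgeR 4.0.16 (R 4.3.3) to all 16 libraries, with TMM scaling, the filterByExpr filter, 8 groups, labelled library type, the quasi-likelihood test (7 residual degrees of freedom) and Benjamini-Hochberg adjustment over 6662 genes. The authors used DESeq2 with library type as a factor and the same thresholds, and DESeq2 1.42.0 was an alternative here. Alternatives also changed scaling, filters, the library-type term, the label of Wilmar-A glucose replicate 1, the samples fitted, the replicate block and the fold threshold, or left out ribosomal and mitochondrial genes or 1 library. The scripts were tested on simulated counts. Intervals and errors cover these libraries only. In bulk RNA, fewer cells expressing a gene and less mRNA per cell cannot be told apart.

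All 36 genes could be named, and the largest and smallest change of each role group was given per comparison. Genes of the pathway lists could be named when called, and those called for glucose-starved over glucose were, with *fbp1* as a check. The other Php genes were named beside *php3*. The 36 genes and the lists were chosen with earlier results of these data known. RefSeq (ASM294v3) matched 6845 genes by locus tag, and 75 of 86 listed pathway genes were found. Coordinates of genes are those of the deposited table, and those of upstream windows are RefSeq's. The window upstream of 1 gene is not reported here.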

Additional observations from a re-analysis of the deposited data

How the results depend on the processing

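All 36 values of glucose-starved over glucose were above 0 in both isolates under every alternative, with 17 to 24 genes called in Wilmar-P and 21 to 28 in Wilmar-A beside the omissions of 1 library, which left 4 to 18 and 17 to 27. For glucose-deficient over glucose in Wilmar-P (2 called), DESeq2 size factors gave 1, the DESeq2 Wald test 6, no strandedness term 1, Wilmar-A glucose replicate 1 as unstranded 6, only the 2 groups without that term 0, and the omissions 0 to 0. In Wilmar-A (11 called), no strandedness term gave 1, only the 2 groups 0, and the omissions 0 to 18. For glucose-starved over glucose-deficient, the Wald test gave 10 and only the 2 groups 3 in Wilmar-P (omissions 1 to 7), and only the 2 groups 0 in Wilmar-A (omissions 1 to 2). For molasses over glucose in Wilmar-P, the Wald test gave 2, Wilmar-A glucose replicate 1 as unstranded 2, only the 2 groups 0, and the omissions 0 to 0. For Wilmar-P against the laboratory strain, genes passed the thresholds when laboratory replicate 1 was left out, and the Wilmar-P against Wilmar-A counts stayed at 0. The cause of these changes was not tested. Treating Wilmar-A glucose replicate 1 as unstranded lowered the common dispersion from 0.100 to 0.0447. Among single genes, 607 values kept their side of the threshold and 59 lost their call under other settings, and with 1 library left out 33.1% of 320 values lost their call and 1 changed sign. The change of sign was *sdh3*, Wilmar-P over Wilmar-A in glucose-starved medium, which ran from -0.19 without Wilmar-P replicate 2 to 0.81 without replicate 1.

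The labels do not say what a replicate number marks, and with 2 pairs a comparison the numbers were not taken as pairs. Replicate differences correlated across 5073 coding genes at 0.92 and 0.95 between the isolates in glucose and glucose-deficient medium, where replicate 1 was the unstranded or unstranded-like library, and at 0.34 in glucose-starved medium. With the replicate block, 1 and 6 genes were called for glucose-deficient over glucose in Wilmar-P and Wilmar-A, 3 for glucose-starved over glucose-deficient in Wilmar-A and 0 for molasses over glucose.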
